A study of Homo sapiens with 7 samples.

Results

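The genes described are the 4 protein kinases that phosphorylate the translation initiation factor eIF2 and 6 genes of the response that follows, the integrated stress response. They were EIF2AK1, EIF2AK2, EIF2AK3, EIF2AK4, ATF4, DDIT3, PPP1R15A, TRIB3, ATF3 and ASNS, chosen by symbol, and made up 10 of the 21305 genes in the table. All 10 had a mean normalized count of at least 10 and were among the 15420 genes tested. The values came from 7 RNA-seq libraries of 501Mel, an established human melanoma line of melanocytic type. Every library carried a short hairpin RNA, that is, an RNA that the cell cuts into a small guide that lowers a matching transcript, and every library was induced with doxycycline, for 3 days by the study's account. The control hairpin targets the bacterial gene lacZ (shlacZ, n = 3), and the hairpins sh4 (n = 2) and sh8 (n = 2) are directed at GRASLND, a long non-coding RNA. The lines were pools of cells transduced with lentivirus and selected with puromycin, and no interferon treatment is named for these libraries. EIF2AK2 encodes PKR, the kinase that the study examined as a protein partner of GRASLND, so the levels ask how transcripts of PKR and of its pathway stood when GRASLND was lowered. The study also reports lower PKR protein after GRASLND knockdown. The RNA does not show protein level, kinase activity or eIF2 phosphorylation.

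As background, eIF2 delivers the initiator tRNA to the ribosome, and phosphorylation of its alpha subunit blocks the exchange factor eIF2B and lowers translation of most mRNAs. HRI (EIF2AK1) responds to heme shortage and mitochondrial stress, PKR (EIF2AK2) to double-stranded RNA, PERK (EIF2AK3) to unfolded proteins in the endoplasmic reticulum, and GCN2 (EIF2AK4) to uncharged tRNA. The mRNA of the transcription factor ATF4 is translated more under these conditions, and ATF4 induces genes for amino acid synthesis, amino acid import and tRNA charging. DDIT3 encodes the factor CHOP, PPP1R15A encodes GADD34, which directs phosphatase 1 to eIF2 and ends the response, TRIB3 encodes a pseudokinase that restrains ATF4, ATF3 encodes a related factor, and ASNS encodes asparagine synthetase. In melanoma, ATF4 activity has been linked to loss of the melanocytic state.

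Between 13337317 and 22855232 reads were recovered per library. The targeted RNA itself was lower in the knockdown libraries, with GRASLND at 309 ± 20.1 normalized counts (SD, n = 3) in the control, 153 ± 30.9 (n = 2) with sh4 and 195 ± 45.1 (n = 2) with sh8, and no knockdown library reached a control library. Over all 4 knockdown libraries its log2 fold change was -0.85 (limma adjusted p = 0.0402). This call was lost when any library but sh8 replicate 1 was left out (up to 0.182). It was also lost with upper quartile scaling (0.0523), no variance trend (0.0805) or the replicate number as a block (0.15). Under sh4 GRASLND passed (0.00662), but not without sh4 replicate 2 (0.0772), and under sh8 it did not pass. The line expressed all 7 melanocytic markers checked, and keratinocyte and endothelial markers were not listed. Of 4 fibroblast markers only COL1A1 was listed, at 5.24 to 16.4 normalized counts, and of 3 leukocyte markers only CD68, at 441 to 675. The summed level of the melanocytic markers was 135575 to 146343 in the control, 51868 to 59737 with sh4 and 101544 to 104484 with sh8. Under sh4, 6 of the 7 fell, against 11.9% of all genes called lower. In the pooled comparison 1 fell, and under sh8 0 passed. In their summed level these markers moved with the groups in the same order as several genes below, and their part in those results was not tested. One control library, shlacZ replicate 1, stood apart from the other controls for genes of the unfolded protein response, and had the lowest control value of 11 of 11 targets of the sensors IRE1 and ATF6. The study states in general that its cell assays used separate biological replicates, but the labels of these libraries do not say which came from separate cultures, so p-values measure the spread between these samples, which may be technical. No batch or date is given. In a bulk sample, fewer cells of a type and less RNA per cell cannot be told apart.

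The promoter windows around the start sites were read for short matches to known control elements. Windows from 250 bases before to 50 bases after each start (RefSeq, GRCh38.p14) were searched on both strands for 4 motifs, namely the C/EBP-ATF response element bound by ATF4 and its partners (CARE, TGATGNAA), the interferon-stimulated response element (ISRE, GAAANNGAA), the cyclic AMP response element (CRE, TGACGTCA) and the short end of the endoplasmic reticulum stress element (ERSE end, CCACG). A CARE and a CRE share their first 3 letters but cannot match at the same position, and other pairs of these motifs can overlap in part. A window was given for 9 of the 10 genes, all but EIF2AK1. The CARE was found in ASNS and ATF3, the ISRE in EIF2AK2 and the CRE in PPP1R15A, whereas 3.62%, 8.11% and 1.85% of all 35116 windows held the CARE, ISRE and CRE. The ERSE end was found in 6 of the 9 and in 38.1% of all windows. A match is a run of letters and not a measured binding site. An element outside the window or in another form was not searched for, so no match does not mean no element. The 4 stretches below are the members' matches to the CARE, ISRE and CRE, printed 5′ to 3′ on the strand of the gene with the motif in capitals.
EIF2AK2: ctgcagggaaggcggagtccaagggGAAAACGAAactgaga
ASNS: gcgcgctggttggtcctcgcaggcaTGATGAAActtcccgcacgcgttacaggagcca
PPP1R15A: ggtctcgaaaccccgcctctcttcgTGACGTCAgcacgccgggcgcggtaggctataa
ATF3: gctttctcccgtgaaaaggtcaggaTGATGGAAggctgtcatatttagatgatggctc
They lie at chr2:37156971-37157011 (minus strand), chr7:97872444-97872501 (minus strand), chr19:48872338-48872395 (plus strand) and chr1:212565191-212565248 (plus strand). Positions are relative to the RefSeq start of the window that holds the motif. The EIF2AK2 motif spans this start, the ASNS motif begins 68 bases before it, the PPP1R15A motif 58 bases and the ATF3 motif 191 bases before it. For EIF2AK2, ASNS and PPP1R15A these starts are not the ends of the gene spans printed below, which come from another annotation.

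EIF2AK2, the PKR gene (chr2:37099210-37157522, minus strand, hg38), was not found to differ between the hairpins and the control. Its normalized counts were 3296, 3145 and 3379 with shlacZ, 3152 and 2785 with sh4 and 2648 and 2878 with sh8. In 3 of the 4 knockdown libraries, both of sh8 among them, the value lay below all controls, and sh4 replicate 1 lay within the control range, so knockdown and control overlapped. The knockdown mean was 2866 ± 213 (SD, n = 4) against 3274 ± 118 (n = 3), which is 87.5% of the control. The log2 fold change was -0.19 (SE 0.11, limma adjusted p = 0.299), with a 95% confidence interval of -0.43 to 0.05. A two-sided exact permutation test over all 35 assignments of the 7 libraries gave p = 0.0857, where the smallest p this design allows is 0.0286. By hairpin the log2 fold change was -0.14 with sh4 (interval -0.39 to 0.11) and -0.25 with sh8 (interval -0.50 to 0.01). The hairpins differed by 0.10 (interval -0.17 to 0.38). With the libraries scaled to their totals the pooled difference was -0.14 (permutation p = 0.229), and with quantile normalization -0.12 (permutation p = 0.343).

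**Figure D1:**
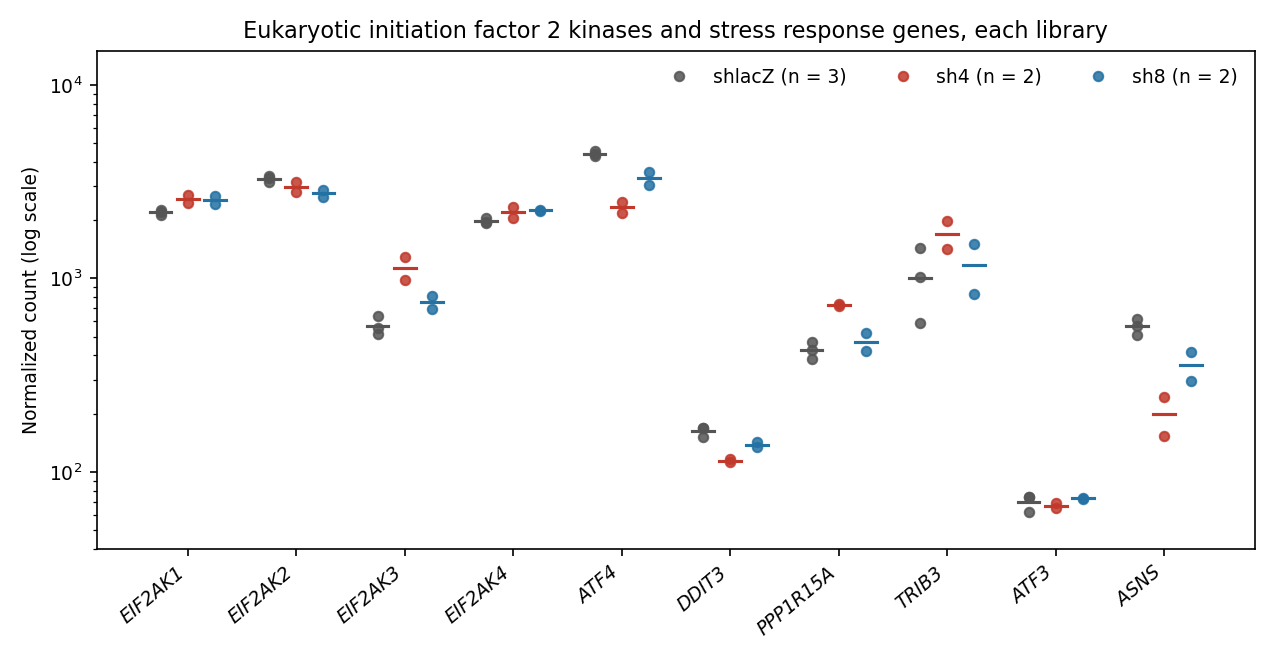
Normalized count (log axis) of the 10 genes in each library, with shlacZ in grey, sh4 in red and sh8 in blue; points are libraries and short bars are group means. ATF4, DDIT3 and ASNS lie lower in all 4 knockdown libraries, EIF2AK3 lies higher in all 4, PPP1R15A is raised in sh4, and EIF2AK2 and ATF3 overlap between the 4 knockdown libraries and the control, although both sh8 libraries of EIF2AK2 lie below it.

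Of the other kinases, EIF2AK3, the gene of PERK (chr2:88556741-88691518, minus strand), rose under sh4. Its normalized counts were 556, 513 and 642 with shlacZ, 981 and 1290.4 with sh4 and 691 and 811 with sh8. Every knockdown library exceeded every control library, and sh4 replicate 2 was the highest. Under sh4 the log2 fold change was 0.99 (SE 0.16, adjusted p = 0.00275), 199% of the control mean. Under sh8 the value was 0.40 (adjusted p = 0.235), and for all knockdown libraries it was 0.69 (adjusted p = 0.0775), neither of which passed. The difference of sh4 from sh8 was 0.59 (interval 0.19 to 0.99, adjusted p = 0.08), and 0.0486 without shlacZ replicate 1. The sh4 call held whichever library was left out.

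EIF2AK1, which encodes HRI, and EIF2AK4, which encodes GCN2, were slightly higher in all knockdown libraries, and neither passed the test. EIF2AK1 had 2132, 2193 and 2246 with shlacZ, 2442 and 2692 with sh4 and 2425 and 2670.2 with sh8. EIF2AK4 had 1941, 1957 and 2057 with shlacZ, 2061 and 2348 with sh4 and 2266 and 2222 with sh8. For both genes the groups did not overlap, although the lowest sh4 library exceeded the highest control library of EIF2AK4 by only a few counts. The pooled log2 fold changes were 0.22 (interval -0.01 to 0.45, adjusted p = 0.224) and 0.16 (interval -0.07 to 0.39, adjusted p = 0.366).

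Per kilobase of the canonical transcript, the order of the kinases in the control was EIF2AK1 (483 to 509 normalized counts per kilobase), EIF2AK4 (351 to 371), EIF2AK2 (315 to 339) and EIF2AK3 (113 to 142), and no neighbours in this order overlapped. Under sh4, EIF2AK3 (216 to 284) overlapped with EIF2AK2 (279 to 316), so the lower pair could no longer be ordered. Under sh8 the order was that of the control, with EIF2AK1 at 549.8 to 605, EIF2AK4 at 401 to 409, EIF2AK2 at 265 to 288 and EIF2AK3 at 152 to 179. These levels depend on the transcript length taken for each gene. ATF4 was far above any kinase, at 3010.4 to 3195 in the control, and ATF3 was the lowest of the 10 genes, at 31.9 to 38.3.

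ATF4 (chr22:39519695-39522683, plus strand), the effector of the response, fell. Its normalized counts were 4272, 4533 and 4367 with shlacZ, 2481 and 2173 with sh4 and 3025 and 3560.2 with sh8. The groups did not overlap, the sh4 libraries were the lowest and the sh8 libraries lay between them and the control. Over all knockdown libraries ATF4 stood at 64% of the control, a log2 fold change of -0.67 (SE 0.16, adjusted p = 0.0474). Under sh4 it fell by 0.92 on the log2 scale (SE 0.12, adjusted p = 0.000818) and with sh8 the value was -0.42 (SE 0.12, adjusted p = 0.0947). The pooled call was lost without shlacZ replicate 1, 2 or 3 (adjusted p = 0.0705, 0.193 and 0.158) and without sh4 replicate 1 or 2 (0.126 and 0.0851), and with limma-voom (0.0521), upper quartile scaling (0.0595), quantile normalization (0.0627) or no variance trend (0.117), whereas the sh4 call held whichever library was left out. Under sh8 the adjusted p was 0.0489 without shlacZ replicate 1. Reads shared with processed copies of ATF4 were divided by the quantifier, so its level carries that uncertainty.

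ASNS (chr7:97851677-97872542, minus strand), a classical ATF4 target whose CARE is printed above, showed the deepest change of the 10 genes under sh4. Its normalized counts were 509.8, 620.1 and 568 with shlacZ, 154 and 243 with sh4 and 295 and 419 with sh8. All knockdown libraries lay below all controls, with sh4 replicate 1 the lowest and sh8 replicate 2 the nearest to the control. Under sh4 ASNS fell to 35% of the control mean, a log2 fold change of -1.54 (SE 0.22, adjusted p = 0.00139). Under sh8 it stood at 63.1% (-0.68, SE 0.22, adjusted p = 0.141). The difference of sh4 from sh8 was -0.86 (interval -1.41 to -0.31, adjusted p = 0.0653), and 0.0367 without shlacZ replicate 1. The pooled value of -1.11 (SE 0.28) had an adjusted p of 0.0542 and did not pass, but passed with limma-voom on recovered reads (0.0484).

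DDIT3, the CHOP gene, had normalized counts of 151, 168 and 168 with shlacZ, 116 and 112 with sh4 and 134 and 142 with sh8. The knockdown libraries were all below the control and again in the order sh4, sh8, control. The pooled log2 fold change of -0.36 (interval -0.75 to 0.02, adjusted p = 0.23) and the sh4 value of -0.50 (interval -0.91 to -0.09, adjusted p = 0.075) did not pass. Under sh8 it was -0.23 (interval -0.63 to 0.18). Without shlacZ replicate 1, the sh4 comparison of DDIT3 passed (adjusted p = 0.0477), as it did with quantile normalization (0.0357) and no variance trend (0.0424).

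PPP1R15A (chr19:48872212-48876059, plus strand), the stress-induced phosphatase subunit, rose under sh4. Its normalized counts were 426, 467 and 385 with shlacZ, 737 and 718 with sh4 and 521 and 422 with sh8. Both sh4 libraries exceeded all others, and sh8 replicate 2 lay within the control range. The log2 fold change was 0.78 under sh4 (SE 0.15, adjusted p = 0.00591) and 0.14 with sh8 (interval -0.20 to 0.48). Without sh4 replicate 1 the adjusted p of the sh4 comparison was 0.0536. PPP1R15A and ATF4 were the members whose levels differed between sh4 and sh8, by 0.63 (adjusted p = 0.0497) and -0.50 (adjusted p = 0.0499). Both of these stood just under the threshold and were lost when any library other than shlacZ replicate 1 was left out, with adjusted p up to 0.249 and 0.28. The ATF4 difference was also lost with scaling to the total (0.0777), where that of EIF2AK3 passed (0.0448), and with quantile normalization (0.0685), where that of ASNS passed (0.0474).

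TRIB3 and ATF3 gave no call. TRIB3 had 588, 1012 and 1428 with shlacZ, 1412 and 1969.6 with sh4 and 826 and 1508 with sh8. The control libraries alone spanned more than the distance between the group means, shlacZ replicate 1 was the lowest of all 7, and the same library was the lowest control for the IRE1 and ATF6 targets. The pooled log2 fold change of TRIB3 was 0.53 (interval -0.20 to 1.25, adjusted p = 0.349), and it was 0.18 (adjusted p = 0.729) without shlacZ replicate 1. Its sh4 value was 0.82 (interval 0.03 to 1.60, adjusted p = 0.123). ATF3 had 74.3, 61.8 and 73.9 with shlacZ, 68.9 and 64.9 with sh4 and 72.5 and 73.7 with sh8. The control range overlapped with each hairpin, and both sh4 libraries lay below both sh8 libraries. Its pooled change was 0.00 (interval -0.44 to 0.45), and its sign flipped under quantile normalization, under limma-voom and without shlacZ replicate 2 or either sh8 library.

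**Figure D2:**
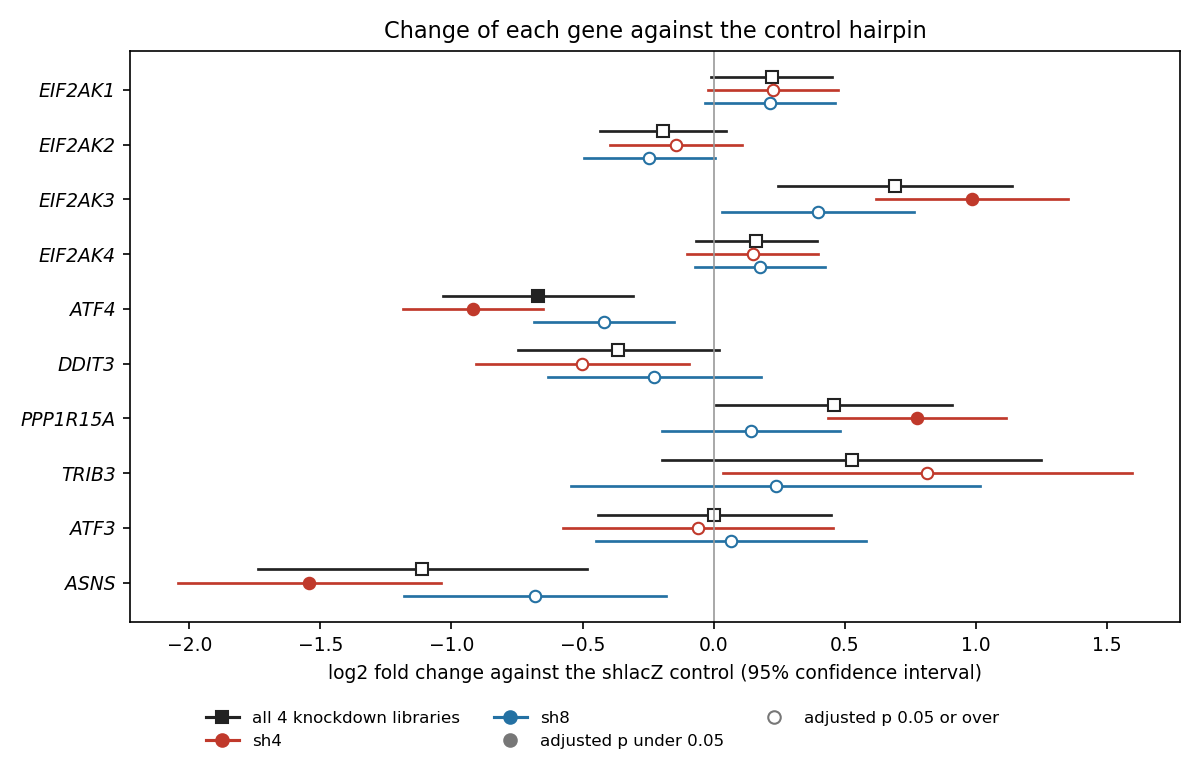
Log2 fold change against the control of each gene (x axis) with its 95% confidence interval, for all 4 knockdown libraries (black squares), sh4 (red) and sh8 (blue); filled symbols passed an adjusted p of 0.05. Filled symbols are ATF4 in the pooled comparison and EIF2AK3, ATF4, PPP1R15A and ASNS under sh4, while no sh8 symbol is filled and the EIF2AK2 intervals all include 0.

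In all, 1 of the 10 genes passed in knockdown against control, 4 under sh4, 0 under sh8 and 2 in sh4 against sh8. Of all genes tested, 2.55% were called higher and 2.06% lower in the pooled comparison, 10.5% and 11.9% under sh4, 1.38% and 1.54% under sh8, and 3.67% and 3.33% in sh4 against sh8. The 4 of 10 under sh4, 2 in each direction, were read against 22.5% of all genes called in either direction. Under sh8, limma called 0 of 10, with 3 at an unadjusted p under 0.05 (EIF2AK3, ATF4 and ASNS) and 0 by limma-voom. Non-overlap with the control was seen for 3 members on the higher side (EIF2AK1, EIF2AK3 and EIF2AK4) and 3 on the lower side (ATF4, DDIT3 and ASNS), compared with 10.2% and 11.0% of all genes tested. The median log2 fold change of the 10 genes was 0.08 pooled, 0.04 under sh4 and 0.10 under sh8, and that of all genes was -0.01 each time. The sh4 and sh8 comparisons share the same 3 control libraries. The split of all calls moved with the scaling. In the pooled comparison 393 genes were called higher and 318 lower, and 493 and 259 with upper quartile scaling. Under sh4 the counts were 1624 and 1840, and 2178 and 1493 with scaling to the total, and for sh4 against sh8 they were 566 and 513, and 859 and 424. Left without shlacZ replicate 1, the comparisons called 0, 5, 1 and 4 members in place of 1, 4, 0 and 2. Over all 15420 genes they then called 697, 4865, 1600 and 1975 in place of 711, 3464, 451 and 1079. The member counts of this setting are thus not to be set against the shares above.

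The pooled comparison treats both hairpins as 1 group, so the distance between sh4 and sh8 counts as spread. When the mean of both hairpins was taken from the fit with 3 groups, 4 members passed, namely ATF4 (adjusted p = 0.0026), ASNS (0.00448), EIF2AK3 (0.00901) and PPP1R15A (0.0355). In that setting 1182 of all 15420 genes tested were called higher and 1352 lower, in place of 393 and 318, so calls rose over all genes. When a call also needed a change of more than 1 on the log2 scale in either direction, ASNS under sh4 was the single member called. With that rule 8.16% of all genes tested were called under sh4.

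Genes that act on the kinases gave 1 call in the pooled comparison and 3 under sh4. Of all genes tested, 4.61% and 22.5% were called in either direction in these comparisons. Of 10 regulators of the eIF2 kinases, DNAJC3, which encodes an inhibitor of PKR and PERK, rose in the pooled comparison (0.56, SE 0.12, adjusted p = 0.0315), from 1042, 1174 and 1211 in the control to 1539 and 1835 with sh4 and 1777 and 1602 with sh8. All knockdown libraries lay above the control for this gene. The pooled call was lost when any 1 library of the shlacZ or sh4 groups was left out (adjusted p up to 0.132), and the sh4 call (0.56, adjusted p = 0.0137) without sh4 replicate 2 (0.123). Under sh4, IMPACT, an inhibitor of GCN2 (-0.62, adjusted p = 0.00636), and GCN1, its activator (-0.50, adjusted p = 0.0186), fell, and the remaining 7 did not pass. GCN1 was lost without shlacZ replicate 2 or 3 or either sh4 library (up to 0.112), and IMPACT without sh4 replicate 1 (0.0639). Under sh8, 0 of 10 passed (1 at an unadjusted p under 0.05 and 0 by limma-voom). The list medians were -0.10, -0.12 and -0.01 in the pooled, sh4 and sh8 comparisons.

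Of the 8 subunits of eIF2 and eIF2B, EIF2S3, the gamma subunit of eIF2, fell under sh4 to 50.2% of the control (-0.99, SE 0.12, adjusted p = 0.000591). Its counts were 7998, 9468 and 9106 with shlacZ, 4263 and 4630.3 with sh4 and 6311 and 7155 with sh8, so the groups separated in the order sh4, sh8, control. EIF2S3 has a near-identical copy that could share its reads. EIF2S2, the beta subunit, passed narrowly (-0.45, adjusted p = 0.0483) and was lost when any library but shlacZ replicate 1 was left out (up to 0.351) and with scaling to the total (0.057). The gene of the phosphorylated alpha subunit, EIF2S1, and the 5 eIF2B genes did not pass, and in the pooled and sh8 comparisons 0 of 8 passed with limma (2 and 1 at an unadjusted p under 0.05, 0 by limma-voom). Under sh4, 11.9% of all genes tested were called lower. The list medians were -0.13, -0.17 and -0.19.

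The catalytic partners of GADD34 moved apart under sh4. PPP1CB rose (0.91, SE 0.12, adjusted p = 0.000836), with 4213, 4676 and 4657 with shlacZ, 7895 and 9135 with sh4 and 3548 and 3978 with sh8. PPP1CC fell (-0.52, SE 0.11, adjusted p = 0.00906), with 5044, 5756 and 5239 with shlacZ, 3569.9 and 3867 with sh4 and 5146 and 5438 with sh8. For both genes the sh4 libraries lay beyond all 5 others, and sh4 differed from sh8 by 1.18 (adjusted p = 0.00182) and -0.51 (0.0356). PPP1CC was lost under sh4 without sh4 replicate 1 (0.0811). Of all genes tested, 22.5% were called in either direction under sh4. PPP1CA and the constitutive subunit PPP1R15B did not pass, and 0 of the 4 passed in the pooled comparison (1 at an unadjusted p under 0.05 and 0 by limma-voom) or under sh8 (1 at an unadjusted p under 0.05 and 0 by limma-voom).

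Of 40 tested genes in 4 lists of known ATF4 targets, 24 fell, 2 rose and 14 did not pass under sh4. Of all genes tested, 11.9% were called lower and 10.5% higher under sh4. The list median under sh4 was lowest for amino acid synthesis and one-carbon metabolism (-1.14). It was -0.60 for the tRNA synthetases and tRNA exporter, -0.22 for the transporters and -0.14 for the stress and growth arrest targets. Of 11 genes for amino acid synthesis and one-carbon metabolism, 10 fell and 0 rose under sh4, 1 fell under sh8 and 2 fell in the pooled comparison, against the 11.9%, 1.54% and 2.06% of all genes called lower. This and the other lists were chosen with earlier results of these data known, so the shares of all genes beside their counts are a description. The median log2 fold change of the list was -1.14 under sh4, -0.39 under sh8 and -0.71 pooled. MTHFD2, the mitochondrial folate enzyme, had 1806, 2297 and 2094 with shlacZ, 542 and 627 with sh4 and 1302 and 1242 with sh8. PHGDH, the first enzyme of serine synthesis, had 2485, 2889 and 2909.9 with shlacZ, 927 and 901 with sh4 and 2043 and 2654 with sh8. MTHFD2 separated sh4, sh8 and control completely, whereas for PHGDH sh8 replicate 2 lay within the control range. MTHFD2 fell under sh4 (-1.82, SE 0.14, adjusted p = 8e-05) and sh8 (-0.69, SE 0.14, adjusted p = 0.0282). PHGDH fell under sh4 (-1.59, adjusted p = 0.00011), while its sh8 value was -0.24 (adjusted p = 0.396) and the difference between the hairpins, -1.35, passed (0.00183). PSAT1, the next enzyme of serine synthesis, fell to 39.4% of the control with sh4, and PYCR1, of proline synthesis, to 41.1%. Without sh4 replicate 1 the sh4 count of 10 dropped to 7, and the sh8 call of MTHFD2 was lost without shlacZ replicate 2 or 3 or either sh8 library (up to 0.219). The pooled calls were MTHFD2 (-1.25, adjusted p = 0.0435) and PSPH, of serine synthesis (-0.73, adjusted p = 0.0279), the latter named after its values were seen. Both were lost without shlacZ replicate 2 or 3 or either sh4 library (up to 0.187 and 0.133), MTHFD2 also without shlacZ replicate 1. Without shlacZ replicate 1, which stood apart, 5 of the 11 fell under sh8, where 886 of all 15420 genes were then called lower in place of 238. In sh4 against sh8, 6 of the 11 were lower, against 3.33% of all genes called lower. Without sh4 replicate 1 it was 2 of the 11, with 270 of all genes called lower in place of 513.

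**Figure D3:**
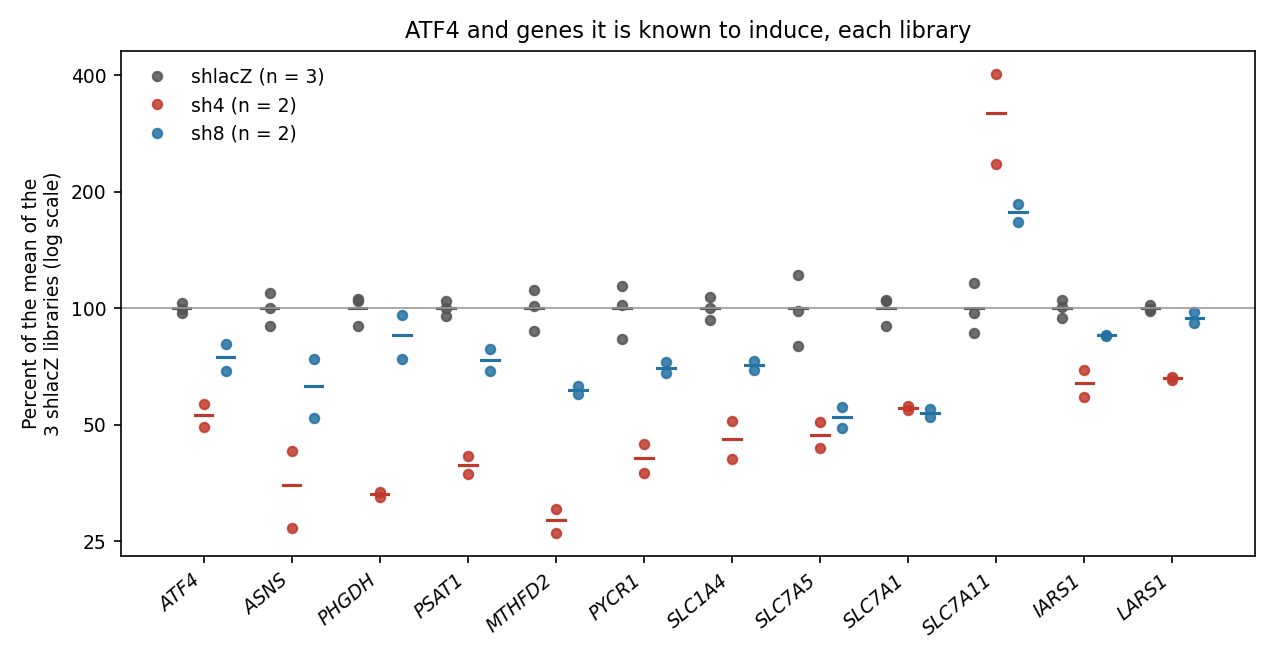
Level of ATF4 and 11 of its known targets in each library as a percent of the mean of the 3 control libraries (log axis), with shlacZ in grey, sh4 in red, sh8 in blue and bars for group means. The 11 targets were picked from those that passed under sh4, so their distance from the control under sh4 is part of the choice. SLC1A5, which rose under sh4, and the stress and growth arrest targets are not shown. Most targets shown follow ATF4 in the order sh4, sh8, control, with MTHFD2 at 28.3% and 61.6%. SLC7A1 and SLC7A5 are alike with both hairpins, and SLC7A11 lies above the control in all 4 knockdown libraries.

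The amino acid transporters split. Of 7 tested, 3 fell and 2 rose under sh4, 2 fell under sh8, and 3 fell and 1 rose in the pooled comparison. Of all genes tested, 11.9% were called lower and 10.5% higher under sh4, 1.54% lower under sh8, and 2.06% lower and 2.55% higher pooled. SLC7A1, an importer of cationic amino acids, had 6141, 7131 and 7162 with shlacZ, 3727 and 3806 with sh4 and 3562 and 3734 with sh8. The knockdown libraries lay below all controls, with sh4 and sh8 overlapping. SLC7A1 and SLC7A5, the light chain of the leucine importer LAT1, fell under either hairpin, SLC7A1 to 55.3% and 53.6% of the control with sh4 and sh8 and SLC7A5 to 47.1% and 52.3%, with hairpin differences of 0.05 (interval -0.23 to 0.32) and -0.15 (interval -0.57 to 0.27). The pooled call of SLC7A1 (adjusted p = 0.00461) held without any 1 library, and that of SLC7A5 (0.0121) was lost without shlacZ replicate 2 (0.066) or 3 (0.0567). Under sh8, both calls were lost without either sh8 library (up to 0.0565 and 0.205), and SLC7A5 also without shlacZ replicate 2 or 3. SLC1A4, a transporter of neutral amino acids, fell under sh4 (-1.13, adjusted p = 0.00043) and differed between the hairpins (-0.64, adjusted p = 0.0255). Its pooled call (0.0448) was lost when any 1 library of the shlacZ or sh4 groups was left out (up to 0.193), and without shlacZ replicate 2 the pooled count of 3 was 1.

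SLC7A11, the cystine importer, went the other way. It had 2524, 3414 and 2858 with shlacZ, 6913 and 11835 with sh4 and 5458 and 4913 with sh8, every knockdown library being above every control. It rose under sh4 (1.64, SE 0.21, adjusted p = 0.000754) and in the pooled comparison (1.23, SE 0.26, adjusted p = 0.034). The pooled call was lost without any 1 of the shlacZ libraries or sh4 replicate 1 (up to 0.118). SLC1A5, a glutamine transporter named after its values were seen, was the other gene that rose under sh4 (1.65, SE 0.33, adjusted p = 0.00638), a call lost without sh4 replicate 2 (0.079).

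The tRNA synthetases and the tRNA exporter fell together but by less. Of 13 genes, 10 fell and 0 rose under sh4, with a median of -0.60, against 11.9% of all genes called lower. In the pooled comparison limma called 0 (median -0.37, 8 at an unadjusted p under 0.05 and 0 by limma-voom) and under sh8 likewise 0 (median -0.23, 5 at an unadjusted p under 0.05 and 0 by limma-voom). LARS1, the leucine tRNA synthetase, had 4634, 4519 and 4476 with shlacZ, 2965 and 3023 with sh4 and 4430.2 and 4154 with sh8. Its sh4 libraries were the lowest, and its sh8 libraries lay just under the control. The sh4 log2 fold changes were -0.79 for YARS1 (adjusted p = 0.0029), -0.60 for LARS1 (0.00311), -0.64 for IARS1 (0.00396) and -0.63 for the exporter XPOT (0.00699). Without sh4 replicate 1 the count of 10 dropped to 3, without the variance trend it was 5, and XPOT was lost without that library (0.0799).

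The CARE was frequent in the windows of these lists. It was found in 7 of the 11 tRNA synthetase genes with a window and 4 of the 7 transporter genes, but in 0 of the 6 amino acid synthesis genes, compared with 4.46% of all 27305 symbols with at least 1 window. These genes had been listed as ATF4 targets, so the motif describes the lists. The stretches below are from genes that fell under sh4 (SLC1A4, IARS1 and CEBPG) and from one that rose (HERPUD1), with the CARE in capitals on the gene's strand; the opposite strand carries it as TTGCATCA.
SLC1A4: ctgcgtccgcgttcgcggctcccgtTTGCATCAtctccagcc
IARS1: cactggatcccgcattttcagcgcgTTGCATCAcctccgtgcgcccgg
CEBPG: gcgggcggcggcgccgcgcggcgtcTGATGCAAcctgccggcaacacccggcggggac
HERPUD1: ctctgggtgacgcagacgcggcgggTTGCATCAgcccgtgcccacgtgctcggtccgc
They lie at chr2:64989367-64989408, chr9:92293688-92293735 (minus strand), chr19:33374046-33374103 and chr16:56931941-56931998. The same 8 letters, on one strand or the other, thus stood beside genes that moved in both directions. ASNS and ATF3 hold other forms of the motif, and ASNS fell under sh4 while ATF3 gave no call.

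Partners and late targets gave few calls, 1 in each list under sh4, where 22.5% of all genes were called in either direction. Among 6 partner factors of ATF4, CEBPG fell under sh4 (-0.49, adjusted p = 0.0392). The call was lost when any library but shlacZ replicate 1 was left out (up to 0.16) and with scaling to the total (0.0668). In the pooled and sh8 comparisons 0 of 6 passed (1 and 2 at an unadjusted p under 0.05, 0 by limma-voom). Of 9 tested stress and growth arrest targets of ATF4 and CHOP, 1 fell under sh4, ERO1A, an oxidase of the endoplasmic reticulum (-0.47, adjusted p = 0.0125), and 0 passed in the pooled (2 at an unadjusted p under 0.05 and 0 by limma-voom) or sh8 comparison (2 at an unadjusted p under 0.05 and 0 by limma-voom). ERO1A was lost without shlacZ replicate 3 (0.0533) or sh4 replicate 1 (0.112). The death receptor gene TNFRSF10B, named after its values were seen, was the one late target whose level differed from one hairpin to the other (0.59, adjusted p = 0.0424), and was lost when any library but shlacZ replicate 1 was left out (up to 0.262). The medians of the partner list were -0.07, -0.31 and -0.12 in the pooled, sh4 and sh8 comparisons, and those of the stress targets -0.15, -0.14 and -0.09.

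**Figure D4:**
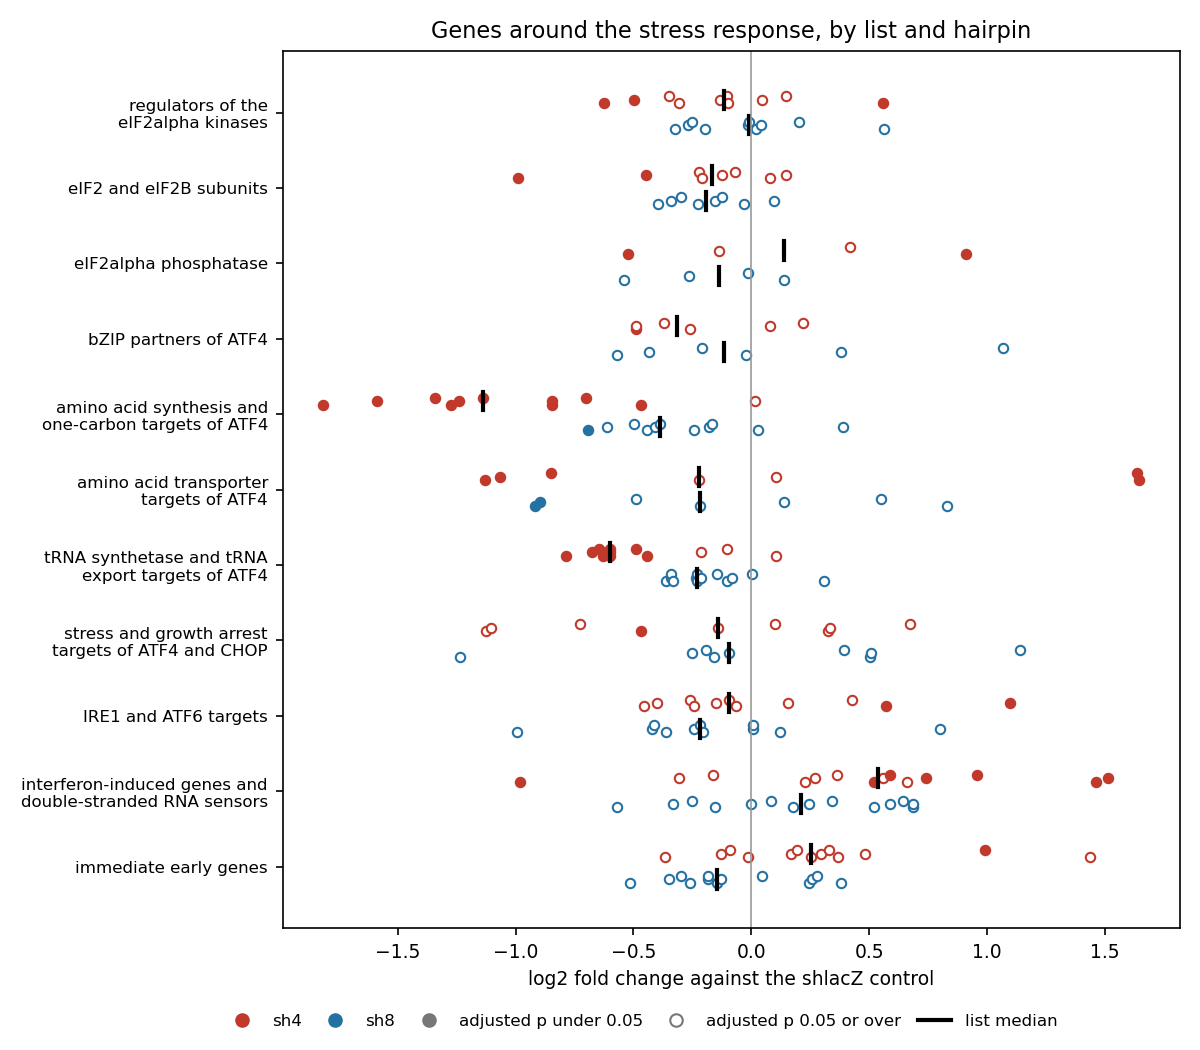
Log2 fold change against the control (x axis) of the tested genes of each list under sh4 (red) and sh8 (blue); filled points passed an adjusted p of 0.05 and black bars are list medians. The amino acid synthesis and tRNA synthetase lists lie left of 0 under sh4, with medians of -1.14 and -0.60, the transporters hold points on both sides, and the IRE1 and ATF6 list has medians of -0.09 under sh4 and -0.22 under sh8.

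The other branches of the unfolded protein response, through IRE1 and ATF6, are separate from eIF2 but share its trigger with PERK. Of 11 of their targets, 2 rose under sh4 and 0 fell, 0 passed in the pooled (2 at an unadjusted p under 0.05 and 0 by limma-voom) or sh8 comparison (3 at an unadjusted p under 0.05 and 0 by limma-voom), and the medians were -0.15, -0.09 and -0.22. HERPUD1, which helps degrade misfolded proteins, had 307, 419 and 581 with shlacZ, 772 and 1052 with sh4 and 563 and 959 with sh8. Its sh4 libraries were above the control and its sh8 libraries overlapped with it. HERPUD1 (1.10, adjusted p = 0.0226) and EDEM1, which directs misfolded glycoproteins to degradation (0.57, adjusted p = 0.0318), were the genes that rose under sh4, where 10.5% of all genes were called higher. Both calls were lost without shlacZ replicate 2 or sh4 replicate 2, and HERPUD1 also without sh4 replicate 1 (up to 0.178 and 0.261). All 11 genes had a window with the ERSE end, compared with 42.1% of all symbols. Immediate early genes were checked because ATF3 and PPP1R15A also answer to handling and growth signals, and of 13 only ZFP36 rose under sh4 (0.99, adjusted p = 0.035), a call lost without shlacZ replicate 2 or 3 or either sh4 library (up to 0.167) and with quantile normalization (0.0644). In the pooled and sh8 comparisons 0 of 13 passed with limma, 0 at an unadjusted p under 0.05 and 0 by limma-voom.

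EIF2AK2 is itself induced by interferon, and no interferon is named for these libraries, so other interferon-induced genes and RNA sensors were set beside it. Of 14 tested, 6 rose and 1 fell under sh4, against the 10.5% and 11.9% of all genes, 1 rose in the pooled comparison and 0 passed under sh8 (2 at an unadjusted p under 0.05 and 0 by limma-voom). The median was 0.54 under sh4, 0.21 under sh8 and 0.43 pooled. RIGI, a cytosolic RNA sensor, had 201, 155 and 162 with shlacZ, 353 and 316 with sh4 and 209.6 and 157 with sh8. Its sh4 libraries were the highest, and its sh8 libraries overlapped with the control. RIGI rose under sh4 (0.96, adjusted p = 0.00786), as did ISG15, a ubiquitin-like protein (1.52, adjusted p = 0.0147) and IFIT3 (0.74, adjusted p = 0.0126), which was also the pooled call (0.67, adjusted p = 0.0407). MX1, an antiviral GTPase, fell under sh4 (-0.98, adjusted p = 0.0295). All of these sh4 calls were lost without either sh4 library (up to 0.0811 for RIGI, 0.141 for ISG15, 0.105 for IFIT3 and 0.141 for MX1), MX1 also without shlacZ replicate 3 and with scaling to the total (0.0628), upper quartile scaling (0.0516) or no variance trend (0.0548), and the count of 6 dropped to 0 without sh4 replicate 1. The pooled IFIT3 call was lost when any library but sh8 replicate 1 was left out (up to 0.162). In the same libraries EIF2AK2 had an sh4 value of -0.14 that did not pass.

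Among 11372 genes with a symbol and a mean of at least 50, the 5 whose log2 levels over the 7 libraries were most like those of EIF2AK2 were DENND11 (Pearson r = 0.984), SEC22B (0.976), GEMIN8 (0.964), RLBP1 (0.961) and TMEM182 (0.958). SEC22B had 5108, 4971 and 5171 normalized counts in the control, 5084 and 4695 with sh4 and 4458 and 4647 with sh8. With so many genes ranked over 7 libraries that fall into 3 groups, such values are a description of these libraries.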

How the data were processed

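RNA was measured in 7 libraries of 501Mel cells, 3 with the control hairpin shlacZ and 2 with each of the GRASLND hairpins sh4 and sh8. Per the study's methods, the authors isolated total RNA with TRIzol, depleted ribosomal RNA, made stranded libraries (QIAseq), sequenced paired ends on a NovaSeq, and ran the zarp pipeline with Cutadapt, STAR to hg38, Salmon and DESeq2. Tool versions are not given in the sources used here. The deposited values, recorded here as a score because they carry decimal commas, are normalized counts, that is, counts divided by 1 size factor per library. For each library, the smallest step gave back whole reads for 100% of values within 0.01. No column belonged to another sample (0). Salmon divides reads among near-identical copies, so such genes are uncertain.

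Gene names came from the table (4633 of 21305 genes have no symbol) and coordinates and transcript lengths from GENCODE release 44 on GRCh38, which held 21281 of the identifiers. Genes with a mean of at least 10 were kept (15420), values were taken as log2(normalized count + 1), and limma 3.58.1 in R 4.3.3 with a variance trend was fitted across all of them, with Benjamini-Hochberg adjustment over all genes tested and a threshold of 0.05. Fold changes are on this log2 scale, where the 1 added lessens the change of low genes. All 4 knockdown libraries were compared with the 3 controls in a fit with 2 groups, and the hairpins with the control and with each other in a fit with 3 groups. Tests were two-sided. The reads recovered were 13337317 to 22855232 a library, summed over the genes in the table, and are not the sequencing depth. With 2 or 3 libraries a group only large differences pass. Negative binomial count models were not fitted here. Limma-voom on the recovered reads, which called 646 genes in the pooled comparison, was the alternative that used counts. The fits were tested on simulated data first.

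The members and lists were chosen with earlier results of these data known, so shares of all genes set beside their counts are a description and no test. From each list, the text names up to 4 genes past the threshold under sh4 or pooled, those with the smallest adjusted p. Alternatives were pseudocounts of 0.5 and 10, no minimum mean or 50, 3 other scalings, no variance trend, limma-voom, the replicate number as a block, the 2 groups alone, the mean of both hairpins, a fold threshold of 1 on the log2 scale as in the study, and leaving out each library.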

Additional observations from a re-analysis of the deposited data

Results flagged for a closer look

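The difference between the 2 GRASLND hairpins was tested, and 14 of the 41 named genes passed at an adjusted p under 0.05 (limma, fit with 3 groups). Most of these genes were named for a small adjusted p under sh4 or in the pooled comparison, and TNFRSF10B for this difference itself, so the count is a description and is not set against the share of all genes. The log2 differences of sh4 from sh8 were -0.50 for ATF4, 0.63 for PPP1R15A, -0.61 for IMPACT, -0.60 for EIF2S3, 1.18 for PPP1CB, -0.51 for PPP1CC, -1.12 for MTHFD2, -1.35 for PHGDH, -0.90 for PSAT1, -0.78 for PYCR1, -0.64 for SLC1A4, -0.52 for LARS1, 0.88 for RIGI and 0.59 for TNFRSF10B. The differences of PPP1CB, MTHFD2 and PHGDH held whichever library was left out, and the other 11 were lost without at least 1 library. The 4 knockdown libraries were also searched, for 41 named genes, for a library far from the other 3. None was found, with a highest share of the range of 0.816 against a critical value of 0.829. The search took both hairpins as 1 set, and a difference between them widens the range. It therefore cannot tell whether 1 library stood apart within its hairpin.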

How the results depend on the processing

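The count of members past the threshold in the pooled comparison was 1. It was 0 with upper quartile scaling, quantile normalization, no variance trend, the replicate block and the fold threshold, and 4 with the mean of both hairpins. With limma-voom it stayed 1, but ATF4 was lost (adjusted p = 0.0521) and ASNS gained (0.0484). It ranged from 0 to 2 when 1 library was left out. Under sh4 the count of 4 became 1 with the fold threshold, 6 with quantile normalization, 5 with scaling to the total, no variance trend or the replicate block, and 3 to 5 when 1 library was left out. Under sh8 the count of 0 ranged from 0 to 1 when 1 library was left out. For sh4 against sh8 the count of 2 was 0 with a pseudocount of 0.5, no minimum mean, no variance trend or the fold threshold, 1 with limma-voom or the 2 groups alone, 4 with the replicate block, an unchanged 2 with scaling to the total and quantile normalization, where ATF4 was replaced by EIF2AK3 or ASNS, and 0 to 4 when 1 library was left out. ATF3, near 0 in the pooled comparison, changed sign with quantile normalization (-0.118) and limma-voom (-0.00556), and it ranged from -0.083 to 0.048 when 1 library was left out, below 0 without shlacZ replicate 2 or either sh8 library. The EIF2AK2 difference kept its direction and did not pass in any of the 5 other settings of the permutation test. Among all comparisons of single genes with an alternative, these 5 included, 1132 kept direction and side of the threshold. Of the rest, 259 lost a call, 15 gained one and 5 changed sign, and the cause was not tested.

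Over all genes, the pooled count of 711 was 138 with no variance trend, 42 with the replicate block, 307 with the fold threshold, 2534 with the mean of both hairpins and 64 to 1144 when 1 library was left out. The sh4 count of 3464 was 1259 with the fold threshold and 1413 to 4865 when 1 library was left out. The sh8 count of 451 was 59 with no variance trend, 178 with the fold threshold, 299 with the 2 groups alone and 53 to 1600 when 1 library was left out, and the sh4 against sh8 count of 1079 was 476, 492 and 144 to 1975 with no variance trend, the fold threshold and 1 library left out. Same-numbered libraries did not deviate together throughout (r from -0.078 to 0.337 over genes), and the labels give no shared culture, so the numbers were not taken to pair the samples. The replicate block gave 0, 5, 0 and 4 members in the pooled, sh4, sh8 and sh4 against sh8 comparisons.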
